A study of Mus musculus with 12 samples.

Results

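The genes described here are the semaphorins, ephrins, Slits and netrins, which are the classical guidance cues, together with their plexin, Eph, Robo and Unc5 receptors. Members were chosen by gene symbol, and each had to reach at least 10 counts in at least 3 of the 12 libraries. Of 55291 symbols counted, 66 carried one of the family names and 59 passed, of which 33 were ligands and 26 were receptors. All 59 were among the 18147 genes kept by the filter on low counts and tested. The 7 symbols that did not pass were Epha5, Epha6, Epha8, Epha10, Robo3, Sema4g and Slit1, of which Robo3 and Sema4g reached 10 counts in 2 libraries and the others in none.

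The libraries were made from total RNA of mouse cells labelled as VE-cadherin-positive endothelial cells, with kits for very low RNA input. Marrow control and lung control libraries came from VECadCre-tdTomato mice without a transplant, and marrow AML and lung AML libraries came from mice of the same line after transplantation of acute myeloid leukaemia (AML) cells of the genotype Trp53(R172H/Δ). Each of the 4 groups held 3 libraries. The line's name gives a Cre recombinase under the VE-cadherin promoter and a tdTomato reporter, and all 4 groups, the controls included, carry it. The sources used here do not give the age and background strain of the mice, the number of AML cells or the time from transplantation to sampling. Nothing in the labels says that the replicates of a group came from separate animals, so the spread behind each p-value is that among these libraries and may be technical in part.

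Guidance cues were first known for steering growing axons, and the same proteins shape blood vessels and cell contacts elsewhere. Semaphorins signal mainly through plexins, with neuropilins as co-receptors for the secreted class 3 members; ephrins are tethered to the cell surface and bind Eph receptor tyrosine kinases on touching cells; Slits bind Robo receptors, and netrins bind DCC, neogenin and Unc5 receptors. In vessels, Efnb2 marks arterial and Ephb4 venous endothelium, Plxnd1 is the endothelial receptor of Sema3e, and Robo4 and Unc5b are receptors found chiefly on endothelium.

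Upstream sequences are shown for 6 members described below. Robo4, Sema3g, Ephb4 and Plxnd1 are members of vascular expression whose levels were lower in each lung AML library than in each lung control library. None of these 4 passed the test in lung, where the groups did not overlap for 35.0% of all genes. Ntn4 was the member with the highest level per length in both marrow groups, and Plxna3 was nearly lost from the marrow AML libraries. RefSeq windows on the mouse build GRCm38.p6 matched 51 of the 59 members, with 67 windows in all, and 8 members had no entry. Each sequence begins 250 bases before the RefSeq start site and reads 5′ to 3′ on the strand of the gene. It stops at the start site, or at the first base that the GENCODE annotation of the same build gives as exon. The regions were chr9:37401722-37401896 on the plus strand for Robo4, chr14:31217623-31217859 on the plus strand for Sema3g, chr5:137349859-137350108 on the plus strand for Ephb4, chr6:115995006-115995255 on the minus strand for Plxnd1, chr10:93640799-93641048 on the plus strand for Ntn4 and chrX:74328816-74329065 on the plus strand for Plxna3. The Ntn4 window lies inside the annotated gene, whose first annotated base is 93640681, in bases that are not exonic. Capitals mark the ETS-like letters AGGAAG on either strand.
Robo4: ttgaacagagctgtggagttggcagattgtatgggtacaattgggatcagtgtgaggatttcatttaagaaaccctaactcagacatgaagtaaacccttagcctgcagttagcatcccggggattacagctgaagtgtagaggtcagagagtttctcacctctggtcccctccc
Sema3g: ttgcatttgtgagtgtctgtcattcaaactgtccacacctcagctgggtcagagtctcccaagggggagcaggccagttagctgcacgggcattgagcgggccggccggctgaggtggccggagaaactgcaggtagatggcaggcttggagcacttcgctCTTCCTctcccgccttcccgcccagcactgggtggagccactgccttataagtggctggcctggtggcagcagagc
Ephb4: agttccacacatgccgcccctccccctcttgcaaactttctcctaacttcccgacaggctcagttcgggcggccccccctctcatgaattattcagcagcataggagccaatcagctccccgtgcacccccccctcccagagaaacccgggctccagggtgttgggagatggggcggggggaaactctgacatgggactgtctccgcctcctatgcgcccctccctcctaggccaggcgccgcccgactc
Plxnd1: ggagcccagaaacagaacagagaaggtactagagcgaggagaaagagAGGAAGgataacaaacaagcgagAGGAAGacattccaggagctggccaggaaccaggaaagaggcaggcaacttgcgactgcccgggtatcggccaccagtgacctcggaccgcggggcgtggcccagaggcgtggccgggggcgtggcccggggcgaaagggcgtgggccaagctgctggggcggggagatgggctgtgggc
Ntn4: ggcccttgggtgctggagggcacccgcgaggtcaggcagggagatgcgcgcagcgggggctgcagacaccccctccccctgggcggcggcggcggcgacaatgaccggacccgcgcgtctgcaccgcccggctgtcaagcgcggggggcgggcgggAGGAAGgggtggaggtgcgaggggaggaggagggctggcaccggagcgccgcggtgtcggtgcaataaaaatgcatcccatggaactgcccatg
Plxna3: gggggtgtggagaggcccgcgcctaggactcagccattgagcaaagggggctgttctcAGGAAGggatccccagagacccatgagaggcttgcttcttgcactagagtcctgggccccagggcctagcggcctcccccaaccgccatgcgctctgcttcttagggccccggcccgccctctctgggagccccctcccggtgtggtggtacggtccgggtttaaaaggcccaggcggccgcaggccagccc

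Over the full windows of 250 bases, with both strands read, AGGAAG was present in 22 of 67 member windows (32.8%) and in 29.5% of the 32851 windows of all genes. The hypoxia-response-like letters ACGTG were present in 14.9% of member windows and 16.6% of all windows. The AP-1-like letters TGANTCA were present in 4.48% of member windows and 6.75% of all windows. The GATA-like letters AGATAA were present in 4.48% of member windows and 9.99% of all windows. Sema3g, Ntn4 and Plxna3 each held 1 AGGAAG match, Plxnd1 held 2 and Ephb4 held none. The single match of Robo4 lay in the exonic bases that are not shown. None of these 6 windows held any of the other 3 strings, and a match describes letters only.

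Total counts per library ran from 12.8 to 39.2 M. The labelled cell type was weakly represented: 20 pan-endothelial genes together took 0.0205 to 0.0314% of the counts in marrow control, 0.0392 to 0.0416% in marrow AML, 0.290 to 1.0% in lung control and 0.0318 to 0.107% in lung AML, and none of the 20 was at 0 in any group. Cdh5, which encodes VE-cadherin, stood at 3.54 to 6.53 CPM, which are counts scaled to a common library depth, in marrow control and 0.388 to 0.955 in marrow AML, and at 75.4 to 348 in lung control and 3.90 to 31.8 in lung AML. By contrast, 18 lung epithelial genes took 16.0 to 19.8% of lung control and 21.5 to 23.3% of lung AML counts. Groups are therefore called by their labels without a claim on the cell type. In RNA from many cells at once, fewer cells of a type and less RNA per cell cannot be told apart. Counting was not by strand, so reads of overlapping or antisense genes cannot be told apart from a member's own: Ntn5 shares 23.4% of its exonic bases with Sec1, Efna3 14.1%, Plxna1 10.7% and Efna4 10.5% with other transcripts, and the other members less.

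The 59 genes together made up 358 to 457 CPM of a marrow control library, 667 to 1030 of a marrow AML library, 2368 to 3943 of a lung control library and 1703 to 2135 of a lung AML library. Marrow libraries thus held the least of these transcripts, AML marrow held more than control marrow in each library, and AML lung held less than control lung in each library. That order holds for the sum and not for every family, as the heat map of log2 levels shows. The 3 Robo receptors had lower means in marrow AML than in marrow control, and Slit2 a higher mean in lung AML than in lung control. Within the marrow sums, Ntn4 alone averaged 61.0 CPM in control and 271 in AML, a large part of the summed rise. Among members with a mean of at least 1 CPM, the median coefficient of variation over the 3 replicates was 45.1% in marrow control, 71.8% in marrow AML, 39.4% in lung control and 19.2% in lung AML, against 20.9%, 32.7%, 19.7% and 12.6% for all genes at that level or above. The members therefore varied more between replicates than the median gene in all 4 groups. They were not matched to genes of the same level, so the part of level in this spread was not tested.

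**Figure D1:**
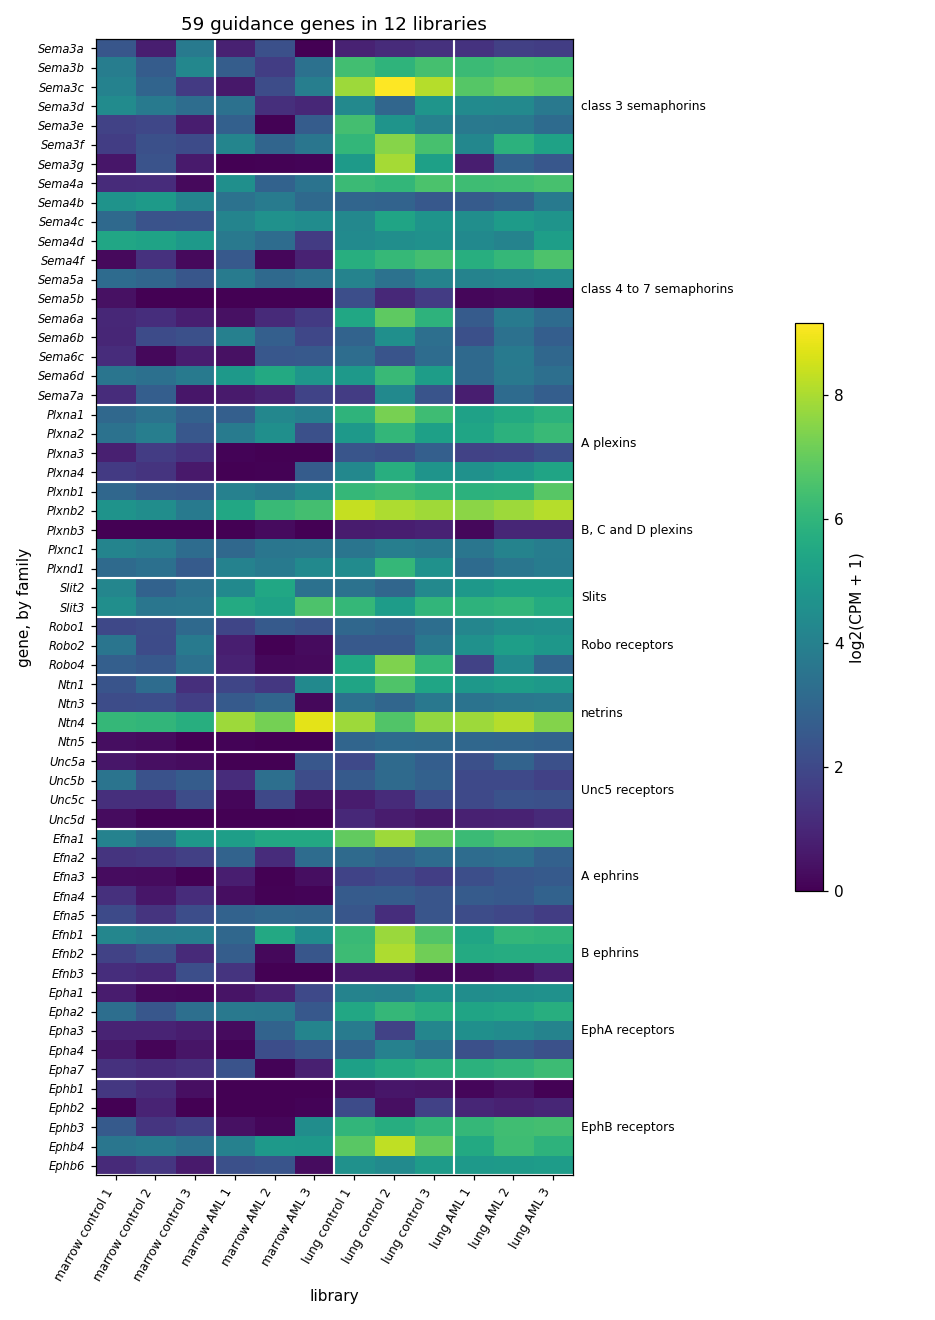
Heat map of log2(CPM + 1) for the 59 members, ordered by family, in the 12 libraries; white lines part the families and the groups. Most rows are brighter in the 6 lung libraries, and Efna1, Ntn4 and Plxnb2 are among the few that are bright in every library.

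Compared per length, as counts scaled for exonic length and depth (RPKM), the ligand Ntn4, a netrin of basement membranes, led both marrow groups at 16.3 ± 2.08 (SD, n = 3) in control and 72.4 ± 39.7 in AML. Efna1, the A ephrin ligand known as an inflammation-induced endothelial gene, came next at 9.73 ± 5.28 and 22.5 ± 3.47 RPKM. In marrow control these were followed by Sema4d at 4.78 ± 0.854, Efnb1 at 4.44 ± 0.481 and Sema4b at 4.30 ± 1.27, which did not differ from one another beyond their spread, and in marrow AML by Slit3 at 9.91 ± 5.10 and Plxnb2 at 8.64 ± 2.64, which did not either. In lung control the order was Efna1 at 86.5 ± 32.6, Sema3c at 50.1 ± 26.0, Ntn4 at 47.1 ± 17.9, Ephb4 at 39.1 ± 24.2, Efnb1 at 38.2 ± 22.7 and Plxnb2 at 35.3 ± 6.42, and neighbours in that order lay within their spread. In lung AML, Ntn4 at 60.2 ± 14.0, Efna1 at 46.0 ± 5.08 and Plxnb2 at 30.0 ± 6.19 led, ahead of Sema3b at 16.7 ± 0.994. A ligand thus came first and another second by mean in each group. Of the receptors, Plxnb2, a broadly expressed plexin for class 4 semaphorins, and Ephb4 lay within their spread of each other in both control groups.

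Control marrow and control lung differed widely in these genes. Of the 59 members, 43 (72.9%) were lower in marrow than in lung and 1 was higher, by edgeR's quasi-likelihood test at an adjusted p under 0.05. Over all genes tested, 34.7% were lower and 29.4% higher, and 64.2% were called in either direction. The median log2 difference was -3.05 over the members and -0.20 over all genes. The groups did not overlap for 47 members (79.7%), against 74.8% of all genes. The 18 lung epithelial genes were all lower in marrow, where they took 0.0424 to 0.251% of counts, and 19 of the 20 pan-endothelial genes were lower too; the part of these cells in the members' difference was not tested.

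Of the ligands, 24 of 33 (72.7%) were lower in marrow and 1 was higher. Of the receptors, 19 of 26 (73.1%) were lower and none was higher. Both shares lay near the 72.9% of all members, and over all genes 34.7% were lower and 29.4% higher. All 5 EphA receptors, 4 of 5 A ephrins and 5 of 7 class 3 semaphorins were among the lower genes. Sema4a, a class 4 semaphorin known from immune cells, was at 1.16, 1.26 and 0.18 CPM in marrow control and at 74.5, 66.3 and 93.7 CPM in lung control, a log2 difference of -6.45 ± 0.62 (SE; adjusted p = 6.20e-06). Efnb2, the arterial ephrin, was at 2.47, 3.72 and 1.14 CPM in marrow and at 76.5, 259 and 142 in lung, a log2 difference of -6.02 ± 0.94 (adjusted p = 0.000199). For both genes each lung library lay far above each marrow library. Among the other members with large differences on the log2 scale were Sema4f (-6.81 ± 1.12), Sema6a (-6.16 ± 0.67), Epha1 (-5.90 ± 0.83), Sema3g (-5.90 ± 1.19), Ntn5 (-5.51 ± 0.88) and Sema3c (-5.45 ± 1.02). Plxnb3 had 55 counts over the lung control libraries and 0 over the marrow control libraries, and was at least 14.0-fold lower in marrow against the floor of 3 counts over the group.

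Sema4b, a class 4 semaphorin, was the member that went the other way, at 25.3, 30.9 and 16.7 CPM in marrow control and at 7.0, 6.57 and 4.74 CPM in lung control, with each marrow library above each lung library (log2 difference 1.99 ± 0.41, adjusted p = 0.00128). Sema4d, the ligand of Plxnb1, was at 42.1, 38.7 and 29.4 CPM in marrow control and 19.9, 21.8 and 23.8 in lung control without overlap, but its difference of 0.75 ± 0.50 did not pass (adjusted p = 0.204). Slit2, Robo1, Robo2, Plxnc1, Unc5b, Unc5c, Efna5 and Sema3d were not called and lay within 1 log2 unit of equality. Of the Slit receptors, the endothelial Robo4 was lower in marrow (-3.77 ± 0.81, adjusted p = 0.00184), while Robo1 (-0.67 ± 0.42) and Robo2 (0.31 ± 0.75) were not called, with errors too wide to show that their levels were alike.

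In marrow, 21 of the 59 members were called between AML and control, 13 higher and 8 lower in AML. That is 35.6% of the members against 43.8% of all genes tested, with 22.0% higher against 20.4% and 13.6% lower against 23.5%. The share called is not above that of all genes. The groups did not overlap for 20 members (33.9%), against 47.8% of all genes. The median log2 fold change was 0.64 over the members and -0.11 over all genes. With library totals alone as the scaling, the median of all genes shifted to 0.16, that of the members to 0.96, and 18 members were higher and 7 lower. Without marrow control 2, 8 members were higher.

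Semaphorins moved in both directions. Sema4a rose most, from 1.16, 1.26 and 0.18 CPM in control to 22.5, 6.38 and 10.2 CPM in AML, a log2 fold change of 3.86 ± 0.57 (SE; adjusted p = 0.000364). Sema6d, a transmembrane semaphorin that binds Plxna1, rose from 10.8, 9.45 and 12.3 CPM to 29.1, 46.8 and 27.3 CPM (1.66 ± 0.36, adjusted p = 0.00365). Each AML library lay above each control library for both genes. Sema4c, a ligand of Plxnb2, rose from 7.73, 4.02 and 4.25 to 16.6, 23.7 and 20.8 CPM (1.93 ± 0.36, adjusted p = 0.00129). Sema3f, a secreted semaphorin that acts through Nrp2, rose from 2.14, 3.77 and 3.30 to 17.1, 6.84 and 11 CPM (1.92 ± 0.52, adjusted p = 0.0116).

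Sema4d fell, from 42.1, 38.7 and 29.4 CPM to 11.98, 8.36 and 2.02 CPM (-2.31 ± 0.52, adjusted p = 0.00436). Sema4b fell from 25.3, 30.9 and 16.7 to 9.91, 12.9 and 7.78 CPM (-1.25 ± 0.40, adjusted p = 0.0247), and it missed the threshold without marrow control 1, marrow control 2, marrow AML 1 or marrow AML 3 (log2 -1.23 to -1.05, adjusted p 0.0522 to 0.0969). The 2 class 4 semaphorins with the highest levels in control marrow were therefore the ones called lower. Sema3g, a secreted semaphorin of arterial endothelium, had 101 counts over the marrow control libraries and 3 over the marrow AML libraries, a ratio of 40.7 after scaling for depth, with a counting interval of 13.5 to 201 (95%, counting error only). Of those control counts most came from marrow control 2, at 4.07 CPM against 0.465 and 0.599 in the others, and the call (adjusted p = 0.0251) was lost without that library (log2 -3.50, adjusted p = 0.148) and without any 1 of the AML libraries (adjusted p from 0.0639). Sema3c, Sema6a and Sema7a were not called in marrow, at 8.14 ± 7.01, 1.02 ± 0.29 and 2.49 ± 2.83 CPM in control and 6.01 ± 7.23, 1.14 ± 0.82 and 1.35 ± 1.08 CPM in AML.

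Of the 9 plexins, 2 rose and 1 fell, where 20.4% of all genes were called higher and 23.5% lower. Plxnb2 rose from 25.1, 21.7 and 12.7 CPM to 44.2, 72.1 and 83.9 CPM (1.75 ± 0.30, adjusted p = 0.000878), and Plxnb1 rose from 7.40, 5.48 and 5.03 to 15.1, 12.5 and 18.7 CPM (1.37 ± 0.27, adjusted p = 0.00210). In both, every AML library exceeded every control library. Their ligand genes thus went apart, with Sema4c and Sema4a called higher and Sema4d called lower. Plxna3, a receptor for class 3 semaphorins, had 84 counts over the control libraries and 1 over the AML libraries, a ratio of 102 after scaling for depth, with a counting interval of 17.8 to 4062. Plxnd1 was at 7.91, 9.30 and 5.21 CPM in control and at 15.7, 12.5 and 19.2 in AML, without overlap, and did not pass (1.08 ± 0.45, adjusted p = 0.0721).

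Of the Slits 1 of 2 and of the netrins 1 of 4 rose in marrow, and 2 of 3 Robo receptors fell. The shares of all genes were 20.4% higher and 23.5% lower, and these families are small. Ntn4 went from 66.8, 64.1 and 52.2 CPM to 224, 151 and 437 CPM (2.15 ± 0.40, adjusted p = 0.00136). Slit3 went from 21.8, 11.2 and 11.4 CPM to 47.5, 37.5 and 95.3 CPM (2.02 ± 0.41, adjusted p = 0.00240). No AML library of either gene lay in the control range, and marrow AML 3 was the highest for both. Robo2 fell from 10.8, 3.32 and 12.3 CPM to 0.712, 0 and 0.209 CPM (-4.97 ± 0.95, adjusted p = 0.00159), and Robo4 from 5.86, 4.72 and 9.58 CPM to 0.842, 0.153 and 0.174 CPM (-4.26 ± 0.93, adjusted p = 0.00363). The lowest control library of each receptor stood above the highest AML library. Robo1 was at 4.72 ± 2.72 CPM in control and 3.99 ± 1.15 in AML and was not called (-0.23 ± 0.42, adjusted p = 0.682). Slit2 (1.09 ± 0.55, adjusted p = 0.127), Ntn1 (0.75 ± 0.83, adjusted p = 0.489) and Unc5b (-0.53 ± 0.64, adjusted p = 0.531) were not called either.

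In the ephrin and Eph families 5 members rose and 2 fell. Of 5 A ephrins 1 rose and 1 fell, and of 3 B ephrins none did either. Of 5 EphA receptors 3 rose, and of 5 EphB receptors 1 rose and 1 fell. Over all genes tested 20.4% were called higher and 23.5% lower. Efna1 went from 15.6, 9.45 and 28.4 CPM to 33.9, 44.9 and 45.0 CPM (1.21 ± 0.36, adjusted p = 0.0185); without marrow control 1 or marrow control 2 it gave 0.91 to 1.13 with adjusted p 0.0577 to 0.0634. Ephb4 went from 11, 12.6 and 9.70 CPM to 15.1, 29.4 and 28.3 CPM (1.13 ± 0.40, adjusted p = 0.0388), without overlap, and missed the threshold without any 1 of marrow control 1, 2 and 3 and marrow AML 2 and 3 (0.98 to 1.23, adjusted p 0.0725 to 0.112). Epha1, Epha3 and Epha4 were called higher although their groups overlapped, and marrow AML 3 held the highest value of each. Epha3 was at 0.884, 0.904 and 0.659 CPM in control and at 0.194, 6.53 and 16.3 CPM in AML (3.23 ± 1.09, adjusted p = 0.0319). Without marrow AML 3 the log2 values were 1.01 (adjusted p = 0.200) for Epha1, 2.06 (0.123) for Epha3 and 2.38 (0.0841) for Epha4, and leaving out marrow control 2 or 3 also ended all 3 calls, as did leaving out marrow control 1 for Epha3 and Epha4 and marrow AML 2 for Epha4 (1.92 to 3.46, adjusted p 0.0597 to 0.111). These 3 calls did not hold in every fit without 1 library, although for Epha3 the fold without a control library was close to that with all.

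Efna4 fell from 1.4, 0.452 and 1.26 CPM to 0.259, 0.038 and 0.070 CPM (-3.17 ± 0.71, adjusted p = 0.00421). Ephb1, an Eph receptor of B ephrins, had 68 counts over the control libraries and 0 over the AML libraries, so it was at least 27.4-fold lower in AML, with a floor of 3 counts over the group. Both were scarce already in control marrow, where Ephb1 was at 1.82, 1.21 and 0.300 CPM. Efnb1 was at 15.3 ± 1.66 CPM in control and 24.5 ± 19.3 in AML, Efnb2 at 2.44 ± 1.29 and 3.41 ± 2.87, and Epha2 at 7.54 ± 2.48 and 9.52 ± 4.14, and none of these was called. The arterial and venous pair Efnb2 and Ephb4 was thus called for Ephb4 alone; the difference between the 2 genes was not tested.

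Markers of several cell types differed between the same marrow libraries, in which 20.4% of all genes were called higher and 23.5% lower. All 14 erythroid genes were lower in AML, at 2.44 to 2.64% of counts in control and 0.107 to 0.565% in AML. Of 12 pericyte and smooth muscle genes 10 were higher (0.0201 to 0.0692% against 0.324 to 1.11%), of 12 pan-leukocyte genes 9 were higher and 1 lower (0.0284 to 0.0300% against 0.10 to 0.132%), of 10 Schwann cell genes 4 were higher and 1 lower, and of 14 stromal and osteolineage genes 5 were higher and 5 lower (1.42 to 2.06% against 0.660 to 1.18%). Of the pan-endothelial genes 2 were higher and 8 lower. Slit3 and the pericyte and smooth muscle share put the 6 marrow libraries in the same order, with the share at 0.0692, 0.0201 and 0.0331% in control and 0.499, 0.324 and 1.11% in AML; this pair was picked after its values were seen. Sema3d, the semaphorin at 20.6, 12.8 and 8.63 CPM in control and 9.58, 1.34 and 1.05 in AML, was not called (adjusted p = 0.0812). The part of these cells in the members' changes was not tested.

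**Figure D2:**
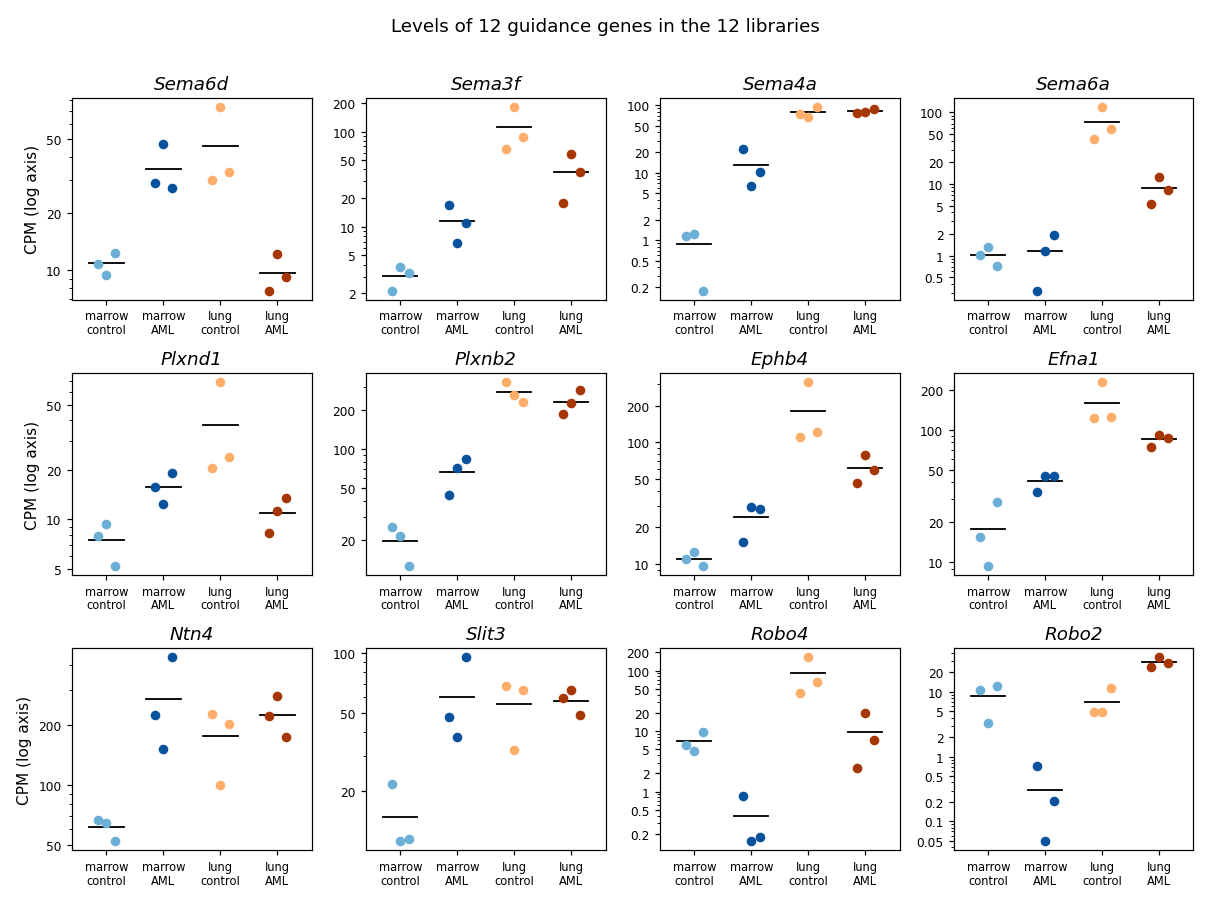
CPM on log axes for 12 members, with 1 point per library in the order of replicates 1 to 3 and a line at the mean of each group of 3. Sema4a, Plxnb2, Ntn4 and Slit3 are higher in every marrow AML library than in every marrow control library, Robo4 and Robo2 are lower there, and Sema6a and Sema6d are lower in every lung AML library than in every lung control library; the Robo2 point without a count, in marrow AML 2, is drawn at the bottom of its panel.

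In lung, 2 of the 59 members were called between AML and control, both lower in AML: the class 6 semaphorins Sema6a and Sema6d. That is 3.39% of the members against 2.33% of all genes tested, 1.16% of them lower and 1.17% higher. No member was called higher by edgeR's quasi-likelihood test, although 3 had an unadjusted p under 0.05 in that direction, and DESeq2 called 1 and limma-voom 3. In the lower direction DESeq2 called 7 members and limma-voom 13, and edgeR on the lung libraries alone called 2 higher and 6 lower. At an unadjusted p under 0.05, 15 members (12 lower) passed, and 16.5% of all genes did. The median log2 fold change was -0.06 over the members and 0.00 over all genes. The groups did not overlap for 24 members (40.7%), against 35.0% of all genes. Of the 24, 18 were lower in AML and 6 higher, and the split by direction over all genes was not computed.

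Sema6d was at 30.2, 73.5 and 33.4 CPM in lung control and at 7.76, 12.1 and 9.16 CPM in lung AML (-2.24 ± 0.37, adjusted p = 0.0139). Sema6a, the transmembrane ligand of Plxna2 and Plxna4, was at 42.7, 119 and 59.2 CPM in control and at 5.25, 12.7 and 8.28 CPM in AML (-3.08 ± 0.57, adjusted p = 0.0212). Lung control 2 was the highest and lung AML 1 the lowest library of both genes, and the groups stood well apart. The call of Sema6d was lost without lung AML 1 or lung AML 3 (-2.20 to -2.10, adjusted p 0.0775 to 0.0818) and that of Sema6a without lung control 2, lung AML 1 or lung AML 3 (-3.04 to -2.55, adjusted p 0.0992 to 0.113). Without lung AML 1 or lung AML 3 no member was called lower, and without lung control 2 only 1 was.

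Several members had lung AML libraries that all lay below the control libraries without passing the test. Sema3g was at 31.0, 242 and 35.6 CPM in control and 0.691, 6.33 and 4.58 in AML (-4.74 ± 1.12, adjusted p = 0.0533). Robo4 was at 43.3, 165 and 65.6 CPM in control and 2.46, 19.7 and 6.99 in AML (-3.24 ± 0.79, adjusted p = 0.0594). Each AML library lay below each control library for both. Ephb4 was at 112, 311 and 122 CPM in control and 46.0, 78.3 and 59.1 in AML (-1.57 ± 0.40, adjusted p = 0.0665), and Plxnd1 at 20.5, 68.4 and 23.9 in control and 8.26, 11.2 and 13.5 in AML (-1.78 ± 0.45, adjusted p = 0.0679). Efnb2 (-1.70 ± 0.76), Sema3c (-1.61 ± 0.86), Sema3f (-1.57 ± 0.49), Efnb1 (-1.23 ± 0.55), Unc5b (-1.17 ± 0.64), Ntn1 (-0.96 ± 0.81) and Efna1 (-0.91 ± 0.36) also had groups that did not overlap, with adjusted p from 0.128 to 0.671. Sema7a was at 2.09, 19.5 and 4.15 CPM in control and 0.718, 8.30 and 5.66 in AML, with the groups overlapping.

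On the side of higher levels, Robo1 was at 7.39, 6.26 and 8.85 CPM in lung control and 17.4, 21.9 and 22.9 in lung AML (1.47 ± 0.42, adjusted p = 0.0972). Robo2 was at 4.83, 4.84 and 11.5 in control and 23.9, 34.2 and 27.7 in AML (2.01 ± 0.78, adjusted p = 0.216), and their ligand Slit2 at 10.04, 7.07 and 18.8 in control and 28.7, 35.8 and 36.0 in AML (1.48 ± 0.55, adjusted p = 0.194). For these 3 genes each AML library lay above each control library, but none passed. The same held for Efna3 (0.75 ± 0.96), Ephb3 (0.36 ± 1.12) and Sema3a (0.79 ± 1.26), the rest of the 6 such members. The Slit receptor Robo4 went the other way, and the groups did not overlap for 35.0% of all genes. Slit3 at 55.1 ± 19.8 and 57.6 ± 8.10 CPM, Ntn4 at 176 ± 67.0 and 225 ± 52.3, Plxnb2 at 273 ± 49.6 and 232 ± 47.8, Sema4d at 21.8 ± 1.96 and 23.2 ± 9.62 and Epha2 at 55.3 ± 12.2 and 45.4 ± 6.34 in control and AML lung had overlapping groups and were not called. Lung epithelial genes took 16.0 to 19.8% of control and 21.5 to 23.3% of AML counts, with 1 of 18 called lower. The 11 lung fibroblast and mesothelium genes took 0.0300 to 0.0685% and 0.0905 to 0.10%, with 1 of the 10 tested called higher. Over all genes 1.16% were lower and 1.17% higher.

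Several members followed the pan-endothelial share from library to library in lung. Of the 20 pan-endothelial genes 12 were called lower in lung AML and none higher, where 1.16% of all genes were lower and 1.17% higher. Efna1, Efnb1, Epha4, Ephb4, Ntn1, Robo4, Sema3c, Sema3f, Sema3g, Sema6a and Sema6d, 11 of the 59 members (18.6%), put the 6 lung libraries in exactly the order of that share, and 345 of the 18127 tested genes outside that marker list (1.90%) did so. The highest library of that order was lung control 2, whose summed CPM of the 20 pan-endothelial genes was 2.90 times the mean of lung control 1 and 3. In the same library Sema3g was 7.25 times, Sema7a 6.25 times, Plxnd1 3.08 times, Robo4 3.03 times and Ephb4 2.67 times that mean, whereas Plxnb2 was 0.939 times, Ntn4 0.466 times and Robo2 0.591 times that mean. In all, 28 of the 59 members had their highest lung control value in that library. Such counts were as high elsewhere, at 28 for lung AML 2 within its group and 27 for marrow control 1 within its group. The share over all genes was not computed. These are descriptions over libraries that share depth and preparation, and the part of the endothelial share in the members' lung differences was not tested.

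**Figure D3:**
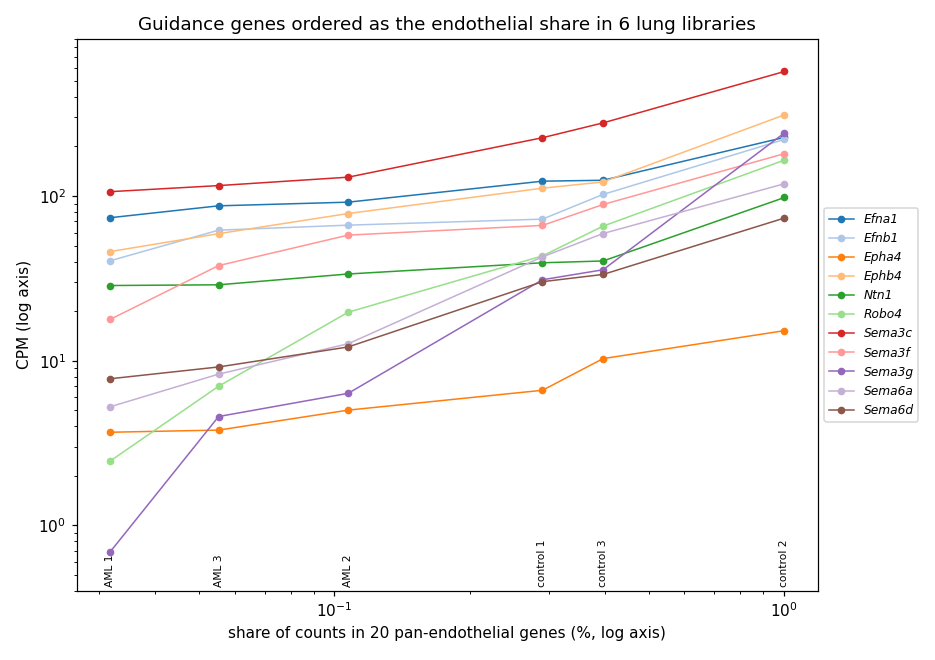
CPM (log axis) of the 11 members that put the 6 lung libraries in the same order as the share of counts in 20 pan-endothelial genes (%, log axis); each line joins the 6 libraries of 1 gene. The 3 lung AML libraries lie at shares of 0.0318 to 0.107% and the controls at 0.290 to 1.0%, and every line climbs at each step.

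The AML effect in marrow differed from that in lung for 21 of the 59 members (35.6%), by a contrast of the same model, against 30.7% of all genes tested. In 14 members the marrow effect was the higher (23.7%, against 14.6% of all genes) and in 7 the lower (11.9%, against 16.1%). The median difference of the log2 effects was 0.93 over the members and -0.09 over all genes. By sign, 20 members lay above 0 in marrow and below 0 in lung, of which 10 were called for the difference, and 10 lay the other way, of which 5 were called. Another 17 lay above 0 in both tissues, of which 4 were called, and 12 below 0 in both, of which 2 were. Opposite signs widen the difference of the effects by construction. The shares of all genes in these classes were not computed. With library totals alone, 16 members were called higher and 4 lower. The 14 became 9 without marrow control 2, marrow control 3 or lung AML 1, and the 7 became 4 without lung control 1 or 2 and 3 without lung AML 3.

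Sema6d gave the most certain difference of the effects, 3.90 ± 0.52 on the log2 scale (adjusted p = 0.000426), and it was the member called in opposite directions, higher in marrow AML and lower in lung AML. In consequence its levels in marrow AML (34.4 ± 10.8 CPM) lay above those in lung AML (9.68 ± 2.22), while in the controls marrow (10.8 ± 1.45) lay below lung (45.7 ± 24.1). Sema6a (3.28 ± 0.81, adjusted p = 0.0106) was called lower in lung and stayed near 1 CPM in both marrow groups. Sema4a (3.79 ± 0.73), Sema3f (3.49 ± 0.72), Plxnd1 (2.85 ± 0.64), Ephb4 (2.70 ± 0.56), Efna1 (2.12 ± 0.51), Sema4c (2.02 ± 0.49) and Plxnb2 (1.98 ± 0.42) were also higher, with adjusted p from 0.00303 to 0.00954. Plxnd1 and Ephb4 therefore passed the test of the difference, with log2 values above 0 in marrow and below 0 in lung, although Plxnd1 was called in neither tissue and Ephb4 in marrow alone. The summed pan-endothelial share went from 0.0269 ± 0.0056 to 0.0402 ± 0.0012% in marrow and from 0.563 ± 0.384 to 0.0648 ± 0.0387% in lung. In marrow that sum hid genes that went the other way. Of the 20, 2 genes were called higher and 8 lower, where 20.4% of all genes were higher and 23.5% lower. The median log2 fold change of the 20 was -1.75, and Cdh5 stood at 4.91 ± 1.51 CPM in control and 0.634 ± 0.291 in AML. The part of these cells in the differences was not tested.

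Robo2 had the largest difference in the other direction, -6.98 ± 1.22 (adjusted p = 0.00184): it fell in marrow AML, while in lung its AML libraries lay above the controls. Robo1 had the same sign (-1.70 ± 0.59, adjusted p = 0.0480), and the endothelial Robo4, lower in AML than control in each library of both tissues, did not differ between them (-1.03 ± 1.15, adjusted p = 0.542), an interval too wide to show that the effects were alike. Plxna3 (-5.49 ± 1.14), Efna4 (-3.29 ± 0.92), Sema4d (-2.40 ± 0.71) and Sema4b (-1.67 ± 0.56) were also lower, as was Ephb1, which had no counts in marrow AML. The calls of Sema6d, Sema4a, Sema3f, Sema6a, Plxnd1, Ephb4, Efna1, Plxnb2, Sema4c, Robo2, Ephb1 and Plxna3 remained in each fit without 1 library. Those of the other 9 were lost without at least 1 library. Efna4 was lost without lung AML 3 (-3.14, adjusted p = 0.0522), Plxnb1 without marrow control 2 or 3, lung control 2 or lung AML 1 (1.10 to 1.19, adjusted p up to 0.0717), and Sema4d without marrow control 1 or 2, lung control 1 or 2 or lung AML 3 (-2.39 to -2.01, up to 0.0732). Ntn4 (1.63 to 1.83, up to 0.0739) and Slit3 (1.78 to 1.98, up to 0.0616) were lost without marrow control 2 or 3, lung control 1 or 3 or lung AML 1 or 3. Epha4 (3.75 to 4.82, up to 0.0806), Robo1 (-1.83 to -1.13, up to 0.140) and Sema4b (-1.74 to -1.19, up to 0.126) were each lost without any 1 of 9 libraries, and Plxna1 (1.30 to 1.98, up to 0.113) without any 1 of 10.

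**Figure D4:**
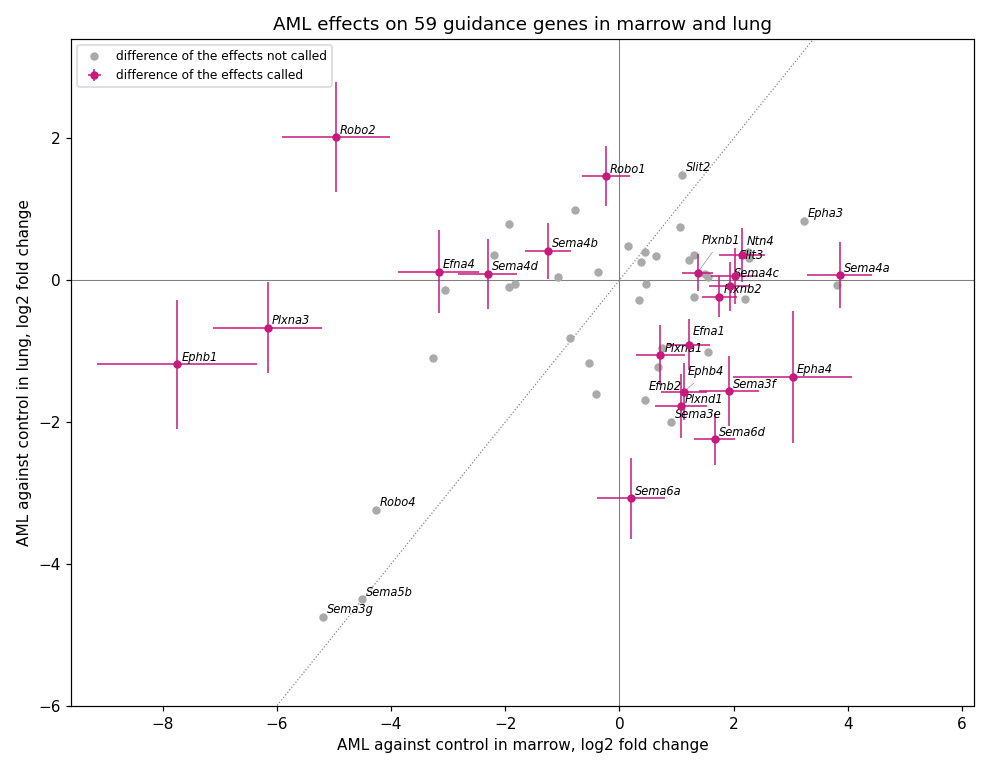
Log2 fold change of AML against control in marrow (horizontal) and lung (vertical) for the 59 members; the dotted line marks equal effects, and bars show the standard error for members whose effects differ between the tissues. Sema6d, Sema6a, Plxnd1, Ephb4 and Sema3f lie to the lower right of the line, Robo2 lies alone at the upper left, and Robo4 and Sema3g lie near the line with both effects below 0. The places of Ephb1, Plxna3, Sema3g and Sema5b are fitted values that rest on few or no counts in marrow AML.

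Co-receptors and alternative receptors of these ligands were followed as a list of 28 genes, 22 of them tested. In marrow AML 8 of the 22 were higher and 1 lower, where 20.4% of all genes were higher and 23.5% lower. In lung AML 2 were higher and 1 lower, where 1.17% and 1.16% of all genes were. For the difference of the effects, 6 were higher in marrow and 1 lower, where 14.6% and 16.1% of all genes were. Nrp1, the co-receptor that class 3 semaphorins share with vascular endothelial growth factor, rose in marrow from 36.8, 41.0 and 22.1 CPM to 200, 242 and 130 CPM (2.52 ± 0.29, adjusted p = 8.25e-05). In lung it was at 482, 658 and 719 CPM in control and 397, 470 and 394 in AML and was not called (-0.56 ± 0.27, adjusted p = 0.343), and the difference of the effects was 3.08 ± 0.39 (adjusted p = 0.000357). Nrp2 was at 136, 72.8 and 129 CPM in marrow control and 56.3, 100 and 27.5 in marrow AML (-0.88 ± 0.39, adjusted p = 0.0898), and higher in control marrow than in control lung (2.46 ± 0.41, adjusted p = 0.000316). Its difference of the effects (-1.58 ± 0.55, adjusted p = 0.0495) was lost without any 1 of 9 libraries (adjusted p up to 0.121). Control marrow was thus richer in Nrp2 and lung in Nrp1 (log2 difference -4.22 ± 0.31, adjusted p = 1.20e-06).

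The list's smallest p-values in marrow belonged to Sdc4, a heparan sulphate proteoglycan (2.90 ± 0.23), Nrp1, Rgmb, a ligand of neogenin (2.29 ± 0.25), Neo1, which encodes neogenin (1.14 ± 0.18), and Itga1, an integrin chain of the Sema7a receptor (2.5 ± 0.40), with adjusted p from 1.88e-05 to 0.000583. In lung, Itga1 was lower (-2.60 ± 0.40, adjusted p = 0.0112), from 127, 425 and 165 CPM in control to 39.6, 46.1 and 32.2 in AML, and its effects in the tissues differed by 5.10 ± 0.57 (adjusted p = 0.000205). Neo1 rose in both tissues (lung 0.85 ± 0.18, adjusted p = 0.0325), from 39.3, 33.8 and 45.5 to 64.5, 70.8 and 78.3 CPM in lung, and Gpc1, a glypican that binds Slits, rose in lung (1.19 ± 0.24, adjusted p = 0.0302). The lung calls of Neo1 and Gpc1 were lost without any 1 of lung control 1 and 2 and lung AML 1, 2 and 3 (0.75 to 1.32, adjusted p 0.0687 to 0.160), and that of Itga1 without lung AML 1 or 3 (-2.61 to -2.48, adjusted p 0.0628 to 0.0644).

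Of 67 intracellular effectors that act below these receptors, 66 were tested. Of these, 18 were higher and 11 lower in marrow AML, where 20.4% of all genes were higher and 23.5% lower. The 4 named next were chosen by the smallest p-values of the list and all rose, and the 11 lower ones are not named. Mical1, an oxidase that acts on actin below plexins, rose from 10.6, 2.36 and 6.17 CPM to 97.6, 73.7 and 104 CPM (3.84 ± 0.46, adjusted p = 0.000113). Rras, a small GTPase that plexins switch off, rose from 24.3, 11.2 and 21.2 to 148, 124 and 271 CPM (3.26 ± 0.35, adjusted p = 5.99e-05), and Rnd2, a plexin-binding GTPase, rose by 3.62 ± 0.47 and Grb10, an adaptor of receptor kinases, by 1.95 ± 0.21. No marrow AML library of Mical1 or Rras fell within the control range. In lung none was higher and 3 were lower, where 1.17% of all genes were higher and 1.16% lower. The 3 were Rgs3 (-2.89 ± 0.51), Cfl1 (-0.68 ± 0.15) and Fes (-1.64 ± 0.37), with adjusted p from 0.0183 to 0.0468. These 3 calls were also lost in fits without 1 library: Rgs3 without lung control 2, lung AML 1 or lung AML 3 (adjusted p up to 0.101), Cfl1 without any 1 library but lung control 3 (up to 0.190), and Fes without any 1 of the 6 (up to 0.224).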

How the data were processed

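RNA of 12 libraries, 3 in each of 4 groups, was sequenced. Per the submitters' processing notes, bcl2fastq, STAR and the mm10 build were used; versions, counter and annotation are not stated there. The deposited files hold raw counts per gene symbol that the authors did not normalise, and per the file names they ignore strand. Groups come from the sample labels.

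Genes were kept by edgeR's filterByExpr (minimum count 10, minimum total 15, by group) and fitted in 1 model of all 12 libraries with TMM factors and edgeR's robust quasi-likelihood test (R 4.3.3, edgeR 4.0.16), with Benjamini-Hochberg adjustment over all 18147 genes. The threshold for a call was an adjusted p under 0.05. Standard errors are the log2 fold change over the square root of F. CPM values use TMM-adjusted library sizes, and RPKM values the exonic length of the GENCODE annotation. The fit was also run on simulated data with the same dispersion for all genes. That run does not cover the wider spread of the members between replicates. Over the library totals of 12.8 to 39.2 M counts, intervals and floors of 3 counts cover counting error only.

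Members, lists and the genes to be named were chosen with earlier results of these data known. Named throughout were 18 members of vascular interest; in each comparison also the up to 8 highest and 8 lowest called members whose higher group averaged 1 CPM or more, and of each list of co-receptors and effectors the 4 genes of smallest p. Replicate numbers were not used to pair the libraries: of 18 same-numbered pairs 3 had deviations correlated above 0.1. Correlations of same-numbered pairs ran from -0.162 to 0.183 and those of other pairs from -0.222 to 0.267. They cannot show whether libraries of the same number share an animal, so a pairing remains possible. Alternatives were DESeq2 1.42.0, limma-voom 3.58.1, other scalings and filters, the compared groups alone, a replicate block, testing against 1.5-fold and fits without each library.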

Additional observations from a re-analysis of the deposited data

Results flagged for a closer look

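For 21 members a contrast of the model found that the AML effect in marrow differed from that in lung. The log2 difference of the effects was higher in marrow for Epha4 (4.4), Sema6d (3.9), Sema4a (3.79), Sema3f (3.49), Sema6a (3.28), Plxnd1 (2.85), Ephb4 (2.7), Efna1 (2.12), Sema4c (2.02), Plxnb2 (1.98), Slit3 (1.96), Ntn4 (1.79), Plxna1 (1.77) and Plxnb1 (1.26). It was lower in marrow for Robo2 (-6.98), Ephb1 (-6.56, a fitted value with no count in marrow AML), Plxna3 (-5.49), Efna4 (-3.29), Sema4d (-2.4), Robo1 (-1.7) and Sema4b (-1.67). The adjusted p ran from 0.000426 for Sema6d to 0.048 for Robo1. Over 21 alternatives, Robo1 was called in 5, Sema4b in 6, Plxna1 in 9 and Epha4 in 10.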

How the results depend on the processing

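Of the genes named as called, 20 of 30 in marrow, 10 of 23 for the difference of the effects and 11 of 11 between control tissues were called under each alternative run, and 0 of 8 in lung. Counts of members called moved as follows. Higher in marrow AML, 13 became 7 with limma-voom and 8 to 15 without 1 library; lower, 8 became 5 with limma-voom, a filter of 5 CPM or the compared groups alone. Higher in lung AML, 0 became 1 with DESeq2, 3 with limma-voom and 2 with the compared groups alone; lower, 2 became 7, 13, 4 with the filter of 5 CPM, 6 with the compared groups alone, and 0 to 3 without 1 library. For a higher difference of the effects, 14 became 8 with limma-voom and 9 to 16 without 1 library; for a lower one, 7 became 4 with library totals, 4 with limma-voom, 2 with the filter of 5 CPM and 3 to 9 without 1 library. Higher in control marrow, 1 became 2 with limma-voom and 3 with the compared groups alone. Over all genes, 4263 lower in marrow became 2833 (5 CPM), 2778 (test against 1.5-fold) and 2543 (compared groups alone), and 212 higher and 211 lower in lung became 719 and 913 with DESeq2, 1007 and 1275 with limma-voom, 62 and 61 against 1.5-fold, 545 and 694 with the compared groups alone, and 50 to 147 and 21 to 185 in the fits without 1 library; 2925 lower differences of the effects became 1756 with library totals and 1944 against 1.5-fold. A replicate block was also fitted, on numbers that are not known to pair the libraries. With it, 10 members were higher and 10 lower in marrow, and 0 and 4 in lung. It gave 12 and 5 for the difference and 1 and 41 between control tissues.

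No call whose alternatives were run (21 members in marrow, 2 in lung, 21 for the difference of the effects and 9 of the 44 between control tissues) changed direction. Values of members that were not called did. In marrow, limma-voom gave -1.05 for Efnb2, -0.37 for Sema6a and -0.36 for Ntn1, and fits without 1 library ran from -0.064 (without marrow AML 1) to 1.03 for Efnb2, from -2.01 to 0.49 (without marrow control 1; 0.10 without marrow AML 1) for Sema3c, from -0.39 (without marrow AML 3) to 0.61 for Sema6a, from -1.74 to 0.63 (without marrow control 2) for Sema7a, from -1.06 (without marrow AML 3) to 1.48 for Ntn1 and from -0.11 (without marrow AML 2) to 1.11 for Efnb1. In lung, limma-voom gave -0.031 for Sema4d and library totals -0.018 for Slit3, and fits without 1 library ran from -0.30 (without lung AML 3) to 0.35 for Sema4d, from -1.38 to 0.65 (without lung control 2) for Sema7a and from -0.21 (without lung control 2) to 0.21 for Slit3. The cause was not tested. Members under 1 CPM have few counts, which limits the precision of their folds.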
